A study of Nannochloropsis oceanica with 36 samples.

Results

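The comparison described here is that of nitrogen-deprived (N-deprived) with nitrogen-replete (N-replete) cultures of Nannochloropsis oceanica IMET1 4 h after transfer, which rests on 6 of the 36 libraries of the study. The organism is a unicellular oleaginous marine alga, a eustigmatophyte. Mid-logarithmic cells grown under continuous light in a nitrate-containing, modified f/2 seawater medium were washed and put, in equal numbers, into medium without or with nitrogen. The 3 N-deprived libraries and the 3 N-replete libraries of 4 h came from biological replicate cultures of the same strain under the same light. Both media were also sampled at 3, 6, 12, 24 and 48 h, and those libraries serve here for the spread of each gene and for setting the 4 h difference beside its neighbours in time. There was no sample from before the transfer, so a difference between the media does not tell which medium moved away from the starting state.

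Algae take up nitrate, reduce it to ammonium and build it into glutamine and glutamate, from which amino acids, nucleotides and chlorophyll are made. When external nitrogen is withdrawn, oleaginous algae are known to slow their growth, to lose photosynthetic pigment and protein, and to store carbon as triacylglycerol in lipid droplets. Nannochloropsis species are studied as producers of such storage lipid.

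Messenger RNA was measured as FPKM, the sequenced fragments of a gene model scaled to its length and to the mapped fragments of its library, for 9756 gene models. Of these, 9647 reached 1 FPKM in at least 3 of the 36 libraries and were tested. The files give a gene symbol for 1 model, isotig00738.DGAT1A. The other genes are given by identifier and by 1-based position on sequences of an assembly whose build was not stated in the sources used here. No transcript of known function in nitrogen uptake or assimilation could therefore be looked up as a check of the media. Across the 4 h libraries the summed FPKM was 553552, 552239 and 532831 in the N-deprived libraries, against 578716, 577219 and 596516 in the N-replete libraries, and every N-deprived sum was the lower (exact two-sided permutation p = 0.1, the smallest that 3 against 3 can give). Models listed at 0 numbered 53, 49 and 59 in the N-deprived libraries, against 66, 68 and 69 in the N-replete libraries (exact two-sided permutation p = 0.1). Total fragment numbers were not given, but the steps between low values gave a relative depth within the 4 h libraries of 0.829, 1.17 and 1.05 in N-deprived replicates 1 to 3 and of 0.987, 0.969 and 0.997 in N-replete replicates 1 to 3. Replicates of a medium were alike, with Pearson's r of the log2 values at 0.9874 to 0.9955 among the N-deprived and 0.9942 to 0.9957 among the N-replete libraries. N-deprived replicate 1, the library of lowest relative depth, had correlations of 0.9874 and 0.9914 with replicates 2 and 3, against 0.9955 between those. These are correlations across genes, which are not independent replicates. The part of the lower sums and of the relative depth in the results below was not tested.

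At 4 h after transfer the transcript levels of 3139 of the 9647 genes differed between the media, most of them by little. In the N-deprived libraries 1986 genes were higher (20.6% of those tested) and 1153 were lower (12.0%) at a Benjamini-Hochberg adjusted p under 0.05 in limma, a linear model of log2(FPKM + 1) over all 36 libraries. Differences are given as log2(FPKM + 1) in N-deprived less that in N-replete medium, so a positive value means a higher level under deprivation. The median called rise was 1.31-fold and the median called fall 1.36-fold, and 90.8% of the calls were of less than 2-fold. FPKM measures a gene's part of its library, and neither the RNA per cell nor the number of cells was given, so a lower share and less RNA of a gene per cell cannot be told apart. With libraries rescaled so that their median ratio to the mean library was equal (centring), 53.7% of the called genes were higher in N-deprived medium, against 63.3% as deposited, and quantile normalization gave 54.0%. The median difference of all genes was then 0.01 with centring, against 0.05 as deposited.

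Large differences were few and lay more often on the lower side, by a margin that depended on the constant added to FPKM before the log. At least 2-fold differences were called for 124 higher genes (1.29% of those tested) and 165 lower genes (1.71%), at least 4-fold for 8 higher and 13 lower genes, and at least 8-fold for 1 higher gene, scaffold00185.g5781, and 6 lower genes. With 0.1 FPKM added in place of 1, 166 genes were called at least 2-fold higher and 180 lower. With 5 FPKM added the counts were 63 and 140. The 3 N-deprived and the 3 N-replete libraries did not overlap for any of the 124 higher or the 165 lower genes. Over all genes tested, the N-deprived libraries lay wholly above the N-replete libraries for 2920 genes (30.3%) and wholly below for 1644 (17.0%). A call did not require this separation, and the libraries of 82 called genes overlapped.

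**Figure D1:**
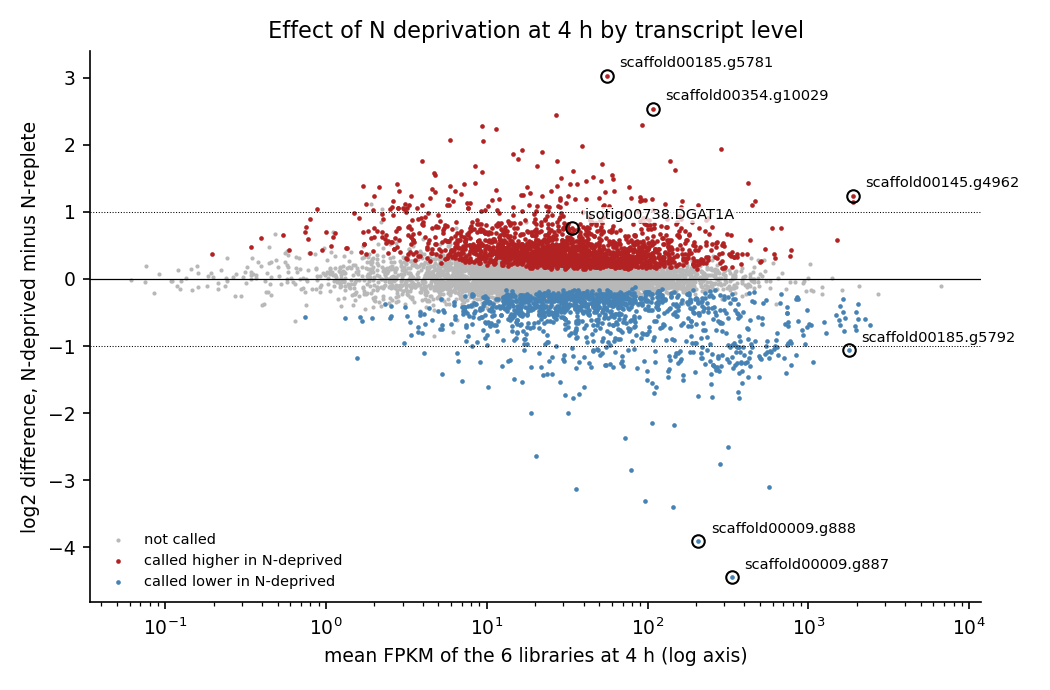
Log2 difference at 4 h (N-deprived minus N-replete, vertical axis) against the mean FPKM of the 6 libraries of 4 h (horizontal log axis), with 1 point per gene tested. Called genes are red (higher in N-deprived) or blue (lower), the dotted lines mark 2-fold, and circles mark 7 of the genes named in the text; the deepest falls, of g887 and g888 at -4.45 and -3.91, lie among the abundant transcripts.

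The gene with a known name was among the moderate rises. DGAT1A encodes a diacylglycerol acyltransferase, an enzyme class that joins an acyl chain to diacylglycerol to make triacylglycerol, the final step of storage lipid synthesis. Its level was 41.0, 44.2 and 43.1 FPKM in the N-deprived libraries, against 25.2, 22.8 and 26.3 FPKM in the N-replete libraries. Every N-deprived library lay above every N-replete library, and the log2 difference was 0.77 (SE 0.069; limma, adjusted p = 1.26e-10). Another 243 genes had a larger positive difference at 4 h. Between 3 and 4 h DGAT1A fell in both media, by 0.23 on the log2 scale in N-deprived medium (SE 0.069; limma, adjusted p = 0.00904) and by 0.28 in N-replete medium (SE 0.069; limma, adjusted p = 0.00156). The difference between the media at 4 h less that at 3 h was 0.05 (SE 0.097; limma, adjusted p = 0.937), and at 6 h less that at 4 h it was 0.12 (SE 0.097; limma, adjusted p = 0.537), so no change of the DGAT1A response over these hours passed the test. The model covers positions 1 to 2030 of its own sequence, isotig00738.

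The largest rise at 4 h was that of scaffold00185.g5781 (positions 103660 to 108586 of scaffold00185), a model with no annotation in the files. Its level was 93.9, 107.8 and 99.96 FPKM in the N-deprived libraries, against 11.6, 11.2 and 11.4 FPKM in the N-replete libraries. The media were 8.82-fold apart in mean FPKM with no overlap, and the log2 difference was 3.03 (SE 0.11; limma, adjusted p = 3.24e-20). It ranked at 1143 of the genes tested by level in N-deprived medium and at 7756 in N-replete medium. The next largest, scaffold00354.g10029 (152757 to 157811 of scaffold00354), reached 173, 196 and 185 FPKM in the N-deprived libraries, against 28.0, 33.4 and 31.6 FPKM in the N-replete libraries. The log2 difference was 2.54 (SE 0.080; limma, adjusted p = 3.40e-21), again with no overlap of the libraries. Counted in FPKM, the largest gain was that of scaffold00145.g4962 (358296 to 359920 of scaffold00145), which held 2804, 2590 and 2598 FPKM in the N-deprived libraries, against 1172, 1067 and 1142 FPKM in the N-replete libraries. It was the transcript at rank 2 in N-deprived medium and at rank 37 in N-replete medium, with 0.488% and 0.193% of the summed FPKM, and its log2 difference was 1.24 (SE 0.096; limma, adjusted p = 3.89e-12).

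The deepest falls belonged to a pair of neighbouring models. Scaffold00009.g887 (1532269 to 1534723 of scaffold00009) was at 37.1, 24.9 and 24.7 FPKM in the N-deprived libraries, against 653, 617 and 656 FPKM in the N-replete libraries. Scaffold00009.g888 (1534818 to 1539216), which starts 94 bp after it, was at 32.2, 20.5 and 23.4 FPKM in the N-deprived libraries, against 407, 367 and 392 FPKM in the N-replete libraries. The mean of g887 was 22.2-fold higher and that of g888 15.3-fold higher in N-replete medium, and for both genes N-deprived replicate 1 was the highest of its group while all its libraries stayed far below those of the N-replete medium. The log2 differences were -4.45 for g887 (SE 0.23; limma, adjusted p = 7.85e-16) and -3.91 for g888 (SE 0.24; limma, adjusted p = 1.97e-14). In N-replete medium g887 ranked at 90 and g888 at 194 of all genes tested, and in N-deprived medium at 4775 and 5309. The model after g888, scaffold00009.g889 (1539951 to 1545003), chosen after its values were seen, went the other way, with a mean of 15.9 FPKM in the N-deprived and 3.06 FPKM in the N-replete libraries and a log2 difference of 2.06 (limma, adjusted p = 1.48e-17). The 3 models before g887 did not pass the test, with log2 differences of -0.03 to 0.21 (limma, adjusted p of 0.245 or more). The largest loss counted in FPKM was that of scaffold00185.g5792 (142558 to 143706 of scaffold00185), with 1336, 1116 and 1039 FPKM in the N-deprived libraries, against 2432, 2356 and 2445 FPKM in the N-replete libraries. They did not overlap (log2 difference -1.06, SE 0.12; limma, adjusted p = 1.09e-08).

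**Figure D2:**
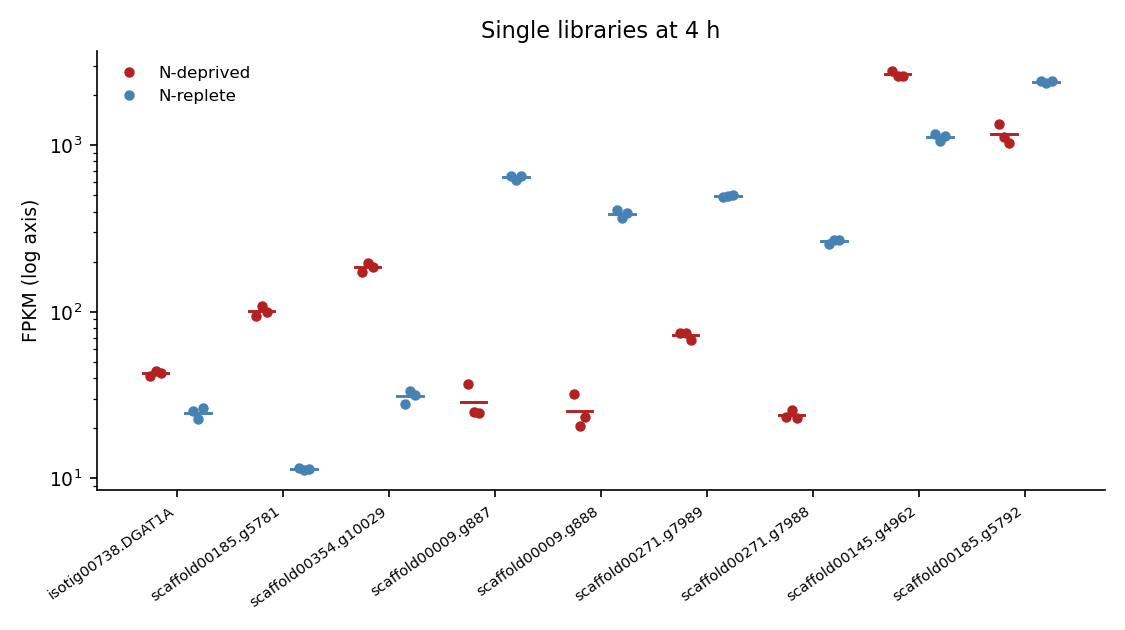
FPKM of single libraries at 4 h (vertical log axis) for DGAT1A and 8 other named genes, with N-deprived libraries in red and N-replete libraries in blue. Each point is 1 library and each bar the mean of 3; for each of the 9 genes shown the colours do not overlap.

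Falls of at least 2-fold were mostly of abundant transcripts and rises of at least 2-fold mostly of scarce or of abundant ones. When the genes tested were divided into 4 equal parts by their mean FPKM over all 36 libraries, the most abundant part (53.4 FPKM and above) held 45 of the 124 higher genes and 122 of the 165 lower genes. The least abundant part (up to 16.1 FPKM) held 48 higher and 8 lower genes, and the middle parts held 21 and 10 higher and 10 and 25 lower genes. With centring on the median ratio the most abundant part held 43 higher and 132 lower genes and the least abundant 46 and 10. Any call, of whatever size, was made for 44.9% of the genes of the most abundant part and for 26.3% of those of the least abundant, where the median standard error of the log2 difference was 0.085 and 0.13. The precision of a call therefore moved with abundance. The 1 FPKM added before the log also shrinks the differences of scarce genes most. In N-replete medium 63 of the 124 higher genes were under 10 FPKM, and in N-deprived medium 16 of the 165 lower genes were. The part of precision and of the added constant in these counts was not tested.

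In FPKM, the 124 higher genes had a median level of 26.8 in the N-deprived and 9.51 in the N-replete libraries, while the 165 lower genes had a median of 85.8 in the N-deprived and 223 in the N-replete libraries. Over all genes tested the medians were 28.5 and 27.3 FPKM in N-deprived and N-replete medium. These levels describe genes chosen by the same contrast and carry no test. Together the 124 genes took 2.37%, 2.44% and 2.43% of the summed FPKM of the N-deprived libraries, against 0.913%, 0.919% and 0.905% of that of the N-replete libraries. The 165 genes took 4.02%, 3.81% and 3.83% in the N-deprived libraries, against 8.97%, 9.03% and 9.04% in the N-replete libraries.

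Among the most abundant transcripts, more were lower than higher under deprivation. Transcripts were ranked by mean FPKM over the libraries of both media at 3 h. Those libraries do not enter the log2 difference at 4 h, but they enter the spread of each gene and so the calls. Of the 100 highest, 9 were higher and 63 lower at 4 h, where 20.6% and 12.0% of all genes were. Their median log2 difference was -0.47. With centring 10 were higher and 66 lower. The counts depended on the medium used for the ranking, since the differences at 3 and 4 h were alike across genes and a ranking on 1 medium favours genes that are high in it. Ranked on the N-deprived libraries of 3 h, 18 of the 100 were higher and 48 lower, with a median of -0.22, and ranked on the N-replete libraries of 3 h, 6 were higher and 73 lower, with a median of -0.61. In the most abundant of the 4 equal parts described above, 547 genes were called higher and 536 lower, and with centring 529 higher and 664 lower. These are descriptions and carry no test of abundance.

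**Figure D3:**
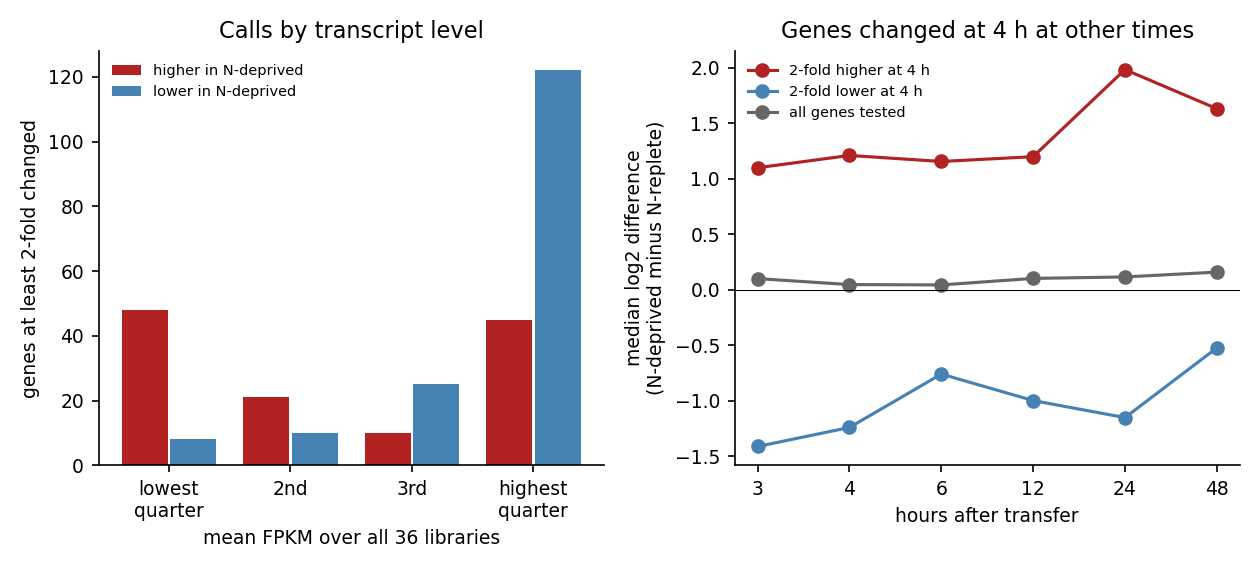
Left, number of genes called at least 2-fold higher (red) or lower (blue) in N-deprived medium at 4 h in each of 4 equal parts of the genes by mean FPKM over all 36 libraries. Right, median log2 difference (N-deprived minus N-replete) at 3, 4, 6, 12, 24 and 48 h, on an evenly spaced axis, of the 124 genes at least 2-fold higher at 4 h, the 165 at least 2-fold lower and all 9647 tested; the red line is highest at 24 h, at 1.99, and the blue line is nearest to 0 at 48 h, at -0.53.

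Most genes called at 4 h were also called in the same direction at 3 h, 1687 (84.9%) of the 1986 higher genes and 882 (76.5%) of the 1153 lower genes. Of the 124 genes at least 2-fold higher at 4 h, 118 were called higher at 3 h, where 28.0% of all genes were, and 111 at 6 h, where 19.5% were. Of the 165 lower genes, 164 were called lower at 3 h (12.0% of all genes) and 159 at 6 h (15.1%). Each time has its own N-deprived and N-replete libraries, although the labels do not say whether a replicate number follows 1 culture over time. The tests at all times share the same estimate of the spread of each gene, so their calls are not independent. At every time replicate 3 had the highest summed FPKM of the N-replete libraries and the lowest of the N-deprived libraries. At 3 h these sums were 607967 and 538574. Libraries of the same number were therefore alike over time in this measure, and its part in the agreement between times was not tested.

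The lower genes were closer to the N-replete level at 6 h than at 4 h. Their median log2 difference was -1.41 at 3 h, -1.24 at 4 h and -0.76 at 6 h, and at least 2-fold falls were called for 151 of them at 3 h, where 2.35% of all genes were that much lower, and for 49 at 6 h, where 1.4% were. The difference at 6 h less that at 4 h was tested gene by gene and was positive in 111 of the 165 genes, where 4.09% of all genes passed in that direction and 4.81% in the negative one. The genes were chosen on the 4 h values that enter this difference, so the count describes them and is no independent test. Among the 124 higher genes the 6 h less 4 h difference was called negative for 23 and positive for 8, and the median log2 difference was 1.10 at 3 h, 1.21 at 4 h and 1.16 at 6 h.

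At the later times the higher genes stayed apart, while the lower genes moved apart again after 6 h and were closest by median at 48 h. The median log2 difference of the 165 lower genes was -0.76 at 6 h, -0.9996 at 12 h, -1.15 at 24 h and -0.53 at 48 h. At least 2-fold falls were called for 82 of them at 12 h, 109 at 24 h and 31 at 48 h. Among all 9647 genes tested these falls numbered 373, 461 and 896. Of the 124 genes, 105 were called higher at 12 h, 113 at 24 h and 109 at 48 h, where 38.7%, 41.3% and 46.1% of all genes were. Of the 165 genes, 150 were called lower at 12 h, 148 at 24 h and 114 at 48 h, where 23.9%, 26.4% and 29.8% of all genes were, and 18 were called higher at 48 h. Calls in the 4 h direction were made at all 6 times for 92 of the 124 higher genes, where 6.9% of all genes were called higher throughout, and for 109 of the 165 lower genes, where 3.6% were called lower throughout. Across all genes tested, the log2 difference at 4 h had a Pearson's r of 0.88 with that at 3 h, 0.73 with 6 h, 0.55 with 12 h, 0.59 with 24 h and 0.38 with 48 h, a description across genes that share library, depth and culture.

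The 4 h response differed from the 3 h response in few genes by test. The difference between the media at 4 h less that at 3 h passed an adjusted p of 0.05 in 90 genes, 51 of them positive (0.529% of genes tested) and 39 negative (0.404%), and 943 genes had an unadjusted p under 0.05. Of the 51 positive genes 35 were called lower in N-deprived medium at 3 h, against 12.0% of all genes, and of the 39 negative genes 31 were called higher at 3 h, against 28.0% of all genes, counts that share the 3 h libraries with the difference they describe. The number of such genes depended on the scaling: 231 passed with centring, 65.8% of them positive, and 213 with quantile normalization, 65.3% of them positive, against 56.7% as deposited. Without N-replete 4 h replicate 1 the number was 55, and without N-replete 4 h replicate 3 it was 59. Genes called at 4 h and not at 3 or 6 h numbered 149 higher and 99 lower. None of these 248 differed from both neighbouring times by limma at an adjusted p of 0.05, and 12 did at an unadjusted p of 0.05.

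**Figure D4:**
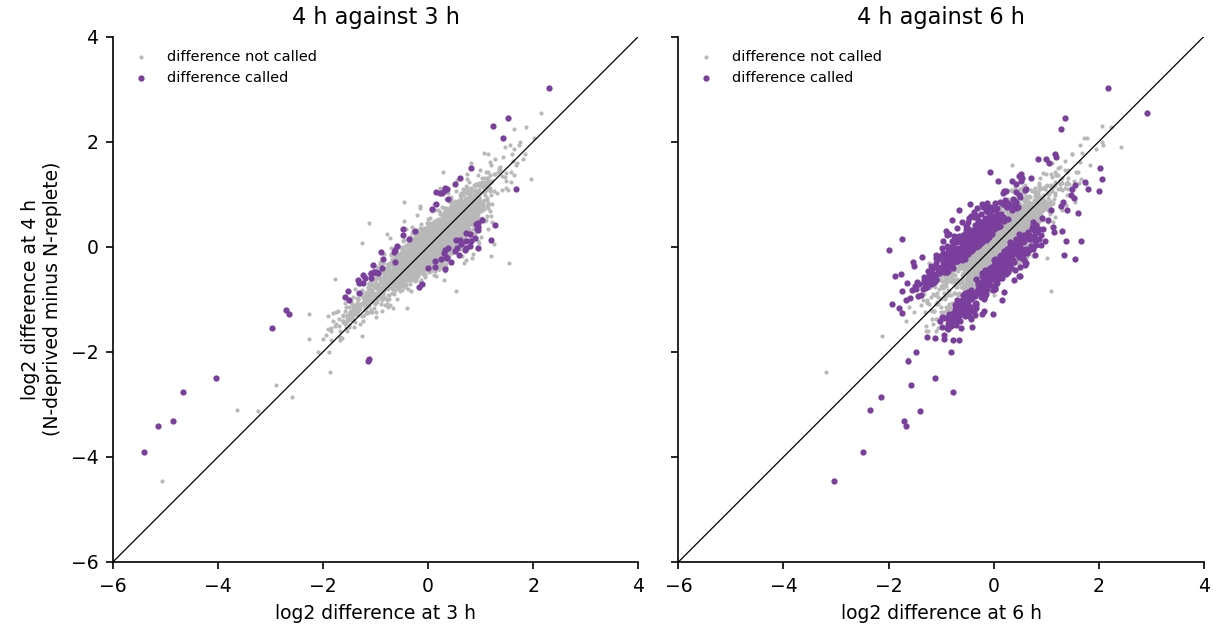
Log2 difference between the media at 4 h (vertical axis, N-deprived minus N-replete) against that at 3 h (left) and 6 h (right), with 1 point per gene tested and the line of equal values. Purple points are genes whose difference changed between the times by test, 90 on the left and 859 on the right; the deepest falls lie above the line on the left and below it on the right.

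The largest positive changes of response from 3 to 4 h belonged to another pair of neighbours, scaffold00271.g7988 (263203 to 267456 of scaffold00271) and scaffold00271.g7989 (268111 to 270893). At 4 h g7989 was at 74.8, 74.4 and 68.1 FPKM in the N-deprived libraries, against 488, 498 and 501 FPKM in the N-replete libraries, and g7988 was at 23.4, 25.8 and 23.1 FPKM in the N-deprived libraries, against 256, 269 and 272 FPKM in the N-replete libraries. The libraries of the media were apart for both, with log2 differences of -2.76 for g7989 (SE 0.24; limma, adjusted p = 6.36e-11) and -3.41 for g7988 (SE 0.26; limma, adjusted p = 2.64e-12). These gaps were smaller than at 3 h by 1.90 for g7989 (SE 0.34; limma, adjusted p = 0.00231) and by 1.74 for g7988 (SE 0.36; limma, adjusted p = 0.0101).

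Both media moved in this pair. Mean g7989 in N-deprived medium was 43.0 FPKM at 3 h, 72.4 FPKM at 4 h and 161 FPKM at 6 h, and in N-replete medium it was 1107 FPKM at 3 h, 496 FPKM at 4 h and 256 FPKM at 6 h. From 3 to 4 h it rose by 0.75 in N-deprived medium (SE 0.24; limma, adjusted p = 0.0150) and fell by 1.16 on the log2 scale in N-replete medium (SE 0.24; limma, adjusted p = 2.96e-04). The gap shrank again by 6 h, by 1.99 for g7989 (SE 0.34; limma, adjusted p = 1.91e-04) and by 1.74 for g7988 (SE 0.36; limma, adjusted p = 0.00178). The N-deprived libraries of g7989 at 6 h were spread widely, at 135, 248 and 100 FPKM, and overlapped the N-replete libraries at 234, 252 and 283 FPKM.

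In the pair g887 and g888 the N-deprived level rose while the N-replete level did not pass the test. From 3 to 4 h g888 rose by 1.78 on the log2 scale in N-deprived medium (SE 0.24; limma, adjusted p = 6.50e-07), where its mean was 25.4 FPKM at 4 h and 6.67 FPKM at 3 h, and its difference in N-replete medium was 0.27 (SE 0.24; limma, adjusted p = 0.391). The gap between the media was smaller at 4 h than at 3 h by 1.50 for g888 (SE 0.34; limma, adjusted p = 0.0192). For g887 the corresponding value was 0.61 (SE 0.33; limma, adjusted p = 0.581), which did not pass. By 6 h the gap had narrowed further in both, by 1.41 for g887 (SE 0.33; limma, adjusted p = 0.00462) and by 1.42 for g888 (SE 0.34; limma, adjusted p = 0.00520).

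The leading riser peaked in its response at 4 h among the first 3 times. The log2 difference of g5781 was 2.30 at 3 h, 3.03 at 4 h and 2.17 at 6 h. The step from 3 to 4 h was 0.73 (SE 0.15; limma, adjusted p = 0.00760) and that from 4 to 6 h was -0.86 (SE 0.15; limma, adjusted p = 2.31e-04). In N-deprived medium its mean level was 51.5 FPKM at 3 h, 101 FPKM at 4 h and 131 FPKM at 6 h, and in N-replete medium 9.69, 11.4 and 28.6 FPKM at 3, 4 and 6 h, so that the N-deprived level was higher at 6 h than at 4 h while the difference was smaller. At 12 h its log2 difference was 3.31, larger than at 4 h. Over all genes the signed log2 difference (N-deprived minus N-replete) became more positive at both steps by test in 27 genes, which include g7989, g7988 and g888, whose gap shrank, and more negative at both steps in 14.

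The largest negative changes of response from 3 to 4 h were in scaffold00247.g7013 (1272687 to 1275060 of scaffold00247) and scaffold00210.g6057 (1 to 971 of scaffold00210). The level of g7013 at 4 h was 2.62, 2.29 and 2.61 FPKM in the N-deprived libraries, against 2.30, 2.03 and 2.23 FPKM in the N-replete libraries, which overlapped (log2 difference 0.14, SE 0.12; limma, adjusted p = 0.416). At 3 h the means had been 12.6 FPKM in the N-deprived and 4.93 FPKM in the N-replete libraries, and the difference at 4 h less that at 3 h was -1.06 (SE 0.17; limma, adjusted p = 4.50e-04). From 3 to 4 h g7013 fell by 1.95 on the log2 scale under deprivation and by 0.89 with nitrogen supplied. At such low levels the 1 FPKM added before the log shrinks the difference. With 5 FPKM added the change of the difference was -0.76, and with 0.1 FPKM added -1.15. The gene was called higher under deprivation again at 6 h, at a log2 difference of 0.43 (limma, adjusted p = 0.00432). It was also called higher at 12, 24 and 48 h, at 0.89, 0.87 and 1.24. The level of g6057 at 4 h was 52.2, 49.6 and 53.6 FPKM in the N-deprived libraries, against 252, 229 and 234 FPKM in the N-replete libraries (log2 difference -2.18, SE 0.10; limma, adjusted p = 6.78e-17), with no overlap. Its gap had widened since 3 h by 1.04 on the log2 scale (a difference of -1.04, SE 0.15; limma, adjusted p = 1.53e-04). It fell in both media over that hour, with log2 changes of -1.65 in N-deprived medium (SE 0.10; limma, adjusted p = 1.31e-13) and -0.61 in N-replete medium (SE 0.10; limma, adjusted p = 2.05e-05).

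**Figure D5:**
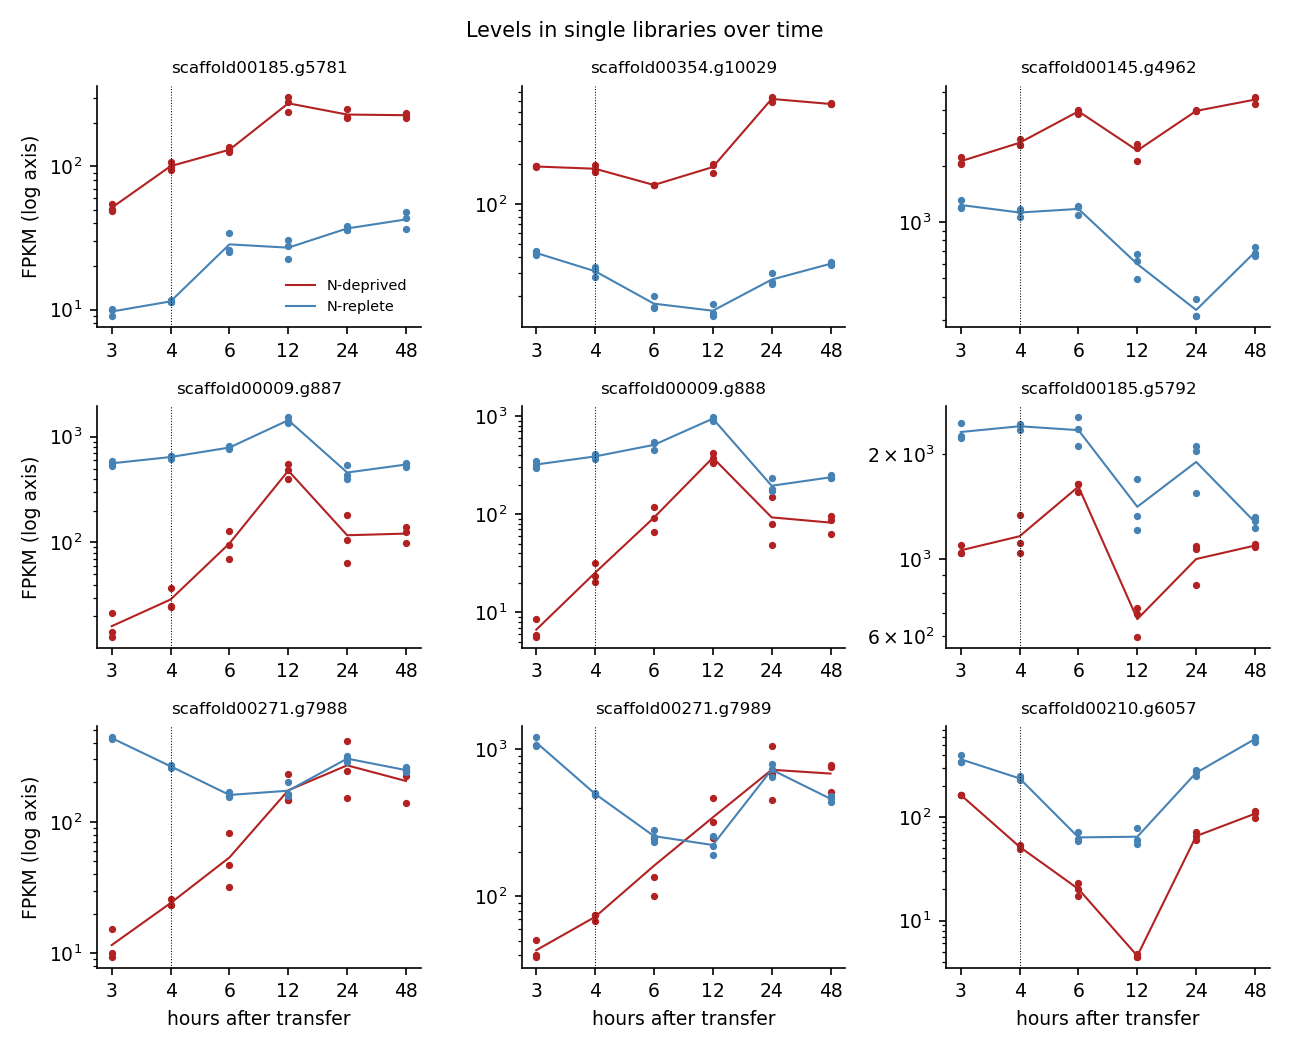
FPKM (vertical log axis) of 9 named genes in single libraries at 3, 4, 6, 12, 24 and 48 h on an evenly spaced axis, N-deprived in red and N-replete in blue, with lines through the means of 3 and a dotted line at 4 h. The media lie apart at 4 h in every panel. The lines of g7989 and g7988 cross between 6 and 12 h, those of g7988 barely, with means of 174 FPKM (N-deprived) and 173 FPKM (N-replete) at 12 h. At 24 h the N-deprived and N-replete means are 722 and 723 FPKM for g7989 and 270 and 304 FPKM for g7988.

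Some genes with no call at 4 h differed between the media at 6 h. Scaffold00009.g880 (1505814 to 1507153 of scaffold00009) was at 9.01, 9.45 and 9.25 FPKM in the N-deprived libraries of 4 h, against 12.0, 9.61 and 11.4 FPKM in the N-replete libraries. These libraries did not overlap. Its log2 difference was called lower at 3 h, at -0.37 (limma, adjusted p = 0.00258), and was -0.23 at 4 h (SE 0.097; limma, adjusted p = 0.0773). At 6 h it was called higher, at 1.54 (limma, adjusted p = 7.76e-14), with means of 37.7 FPKM in the N-deprived and 12.4 FPKM in the N-replete libraries. The difference at 6 h less that at 4 h was 1.76 (SE 0.14; limma, adjusted p = 4.38e-10). Scaffold00069.g2396 (482833 to 485764 of scaffold00069) was at 9.23, 12.4 and 12.1 FPKM in the N-deprived libraries of 4 h, against 9.02, 9.79 and 11.4 FPKM in the N-replete libraries, which overlapped (log2 difference 0.14, SE 0.14; limma, adjusted p = 0.485). At 6 h its means were 1.91 FPKM in the N-deprived and 8.58 FPKM in the N-replete libraries, a difference from 4 h of -1.88 (SE 0.19; limma, adjusted p = 6.77e-08).

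The last of these genes was scarce. Scaffold00127.g4254 (283381 to 285705 of scaffold00127) was at or below 0.321 FPKM in the N-deprived libraries of 4 h and at or below 0.450 FPKM in the N-replete libraries. At 6 h the N-deprived libraries were listed at 0, 0.197 and 0.296 FPKM, against 9.46, 3.35 and 1.15 FPKM in the N-replete libraries. The 6 h less 4 h difference was -1.94 (SE 0.41; limma, adjusted p = 0.00203). It rests on widely spread N-replete libraries, ranged from -3.73 to -0.80 over the alternatives tried, and did not pass in a model of the 4 and 6 h libraries alone (limma, adjusted p = 0.0567).

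Many more genes moved between 3 and 4 h within each medium than differed in that movement between media. In N-deprived medium 1991 genes were called higher at 4 h than at 3 h (20.6%) and 1493 lower (15.5%). In N-replete medium 2326 were called higher (24.1%) and 1328 lower (13.8%). Of the 3484 genes called in N-deprived and the 3654 called in N-replete medium, 2508 were called in both in the same direction, which is 72.0% and 68.6% of the lists, and 19 in opposite directions. As deposited, higher calls made up 57.1% of those in the N-deprived and 63.7% of those in the N-replete libraries, and with quantile normalization 51.6% in the N-deprived and 51.0% in the N-replete libraries. In N-deprived medium 36 of the 165 strongly lower genes were called higher at 4 h than at 3 h and 38 lower. In N-replete medium 8 of the 165 were called higher and 53 lower. Of the 124 higher genes, 43 were called higher and 9 lower in N-deprived medium, and 25 and 31 in N-replete medium. The shares of all genes were 20.6% and 15.5% in N-deprived and 24.1% and 13.8% in N-replete medium. Both sets were chosen on the 4 h values that enter these steps, so the counts describe them and are no independent test.

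Strongly changed genes lay beside another of the same direction more often than genes in general did, though most did not. Of the 120 genes at least 2-fold higher with a tested neighbour next in the files' order, 24 (20.0%) were next to another such gene, whereas 2.4% of all genes with a neighbour were next to one. Of the 165 lower genes 27 (16.4%) were next to another, against 3.4% of all genes. The adjacent pairs numbered 12 among the higher and 14 among the lower genes, with median gaps of 94 and 51.5 bp and no overlap of their models. Another 5 adjacent pairs were called at least 2-fold in opposite directions. One run of 3 adjacent lower models lay between 6666 and 12731 of scaffold00104, with log2 differences of -1.37 to -1.22. The libraries were strand-nonspecific and the files give no strand or exons, so fragments of a transcript that runs on into its neighbour cannot be told apart from those of the neighbour. These counts of neighbours were chosen after the data had been seen. The higher genes lay on 52 sequences and the lower genes on 45, with median locus lengths, introns included, of 1891 and 2046 bp, against 2135 bp for all genes tested.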

How the data were processed

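Per the labels' protocols, poly(A) RNA was selected from the total RNA of whole cells, and strand-nonspecific libraries were sequenced as read pairs, while a label field names the molecule as nuclear RNA. The authors deposited FPKM for each gene model, and the submitters' processing notes list TopHat2 2.0.4 and Cufflinks 2.0.2 as the authors' tools without a role or settings. Build and gene annotation are not given in the sources used here. FPKM is relative, so a fall of abundant transcripts raises the share of all others, and fragments shared by near-identical genes may be split between them. The files' starts count from 0 and were raised by 1.

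Library titles gave the groups. The analysis used log2(FPKM + 1), which understates fold changes, most at levels around or under 1 FPKM and less at higher levels. For scaffold00185.g5781, at a mean of 11.4 FPKM in N-replete medium, 8.82-fold in mean FPKM was 8.17-fold on this scale. The genes tested reached 1 FPKM in 3 or more of the 36 libraries. They were fitted in limma 3.58.1 (R 4.3.3) with 12 group means and a trended prior. P-values are two-sided and adjusted by the Benjamini-Hochberg method over 9647 genes within each contrast, with calls at an adjusted p under 0.05. The contrasts were the media at 4 h, that difference less the one at 3 h, the one at 6 h less it, and 4 h less 3 h within each medium. The pooled variance takes the spread of 4 h to be like that of the other groups, and p-values treat all libraries as independent, although cultures may have been sampled repeatedly. The fitting steps were tested on simulated data.

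Depth was not given as fragment totals. A relative depth was found as the scale on which low FPKM values become whole fragments, which 86.8% of 730 values of 140 low genes did within 0.1. Because 13.2% of these values did not, no count test was made.

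Named genes were DGAT1A, the 2 largest and 2 smallest called 4 h differences without overlap of libraries, the 2 largest and 2 smallest called differences of 4 h from 3 h and of 6 h from 4 h, and the largest gain and loss of FPKM at 4 h. The comparison, the members and the lists were chosen with earlier results of these data known. Lists of genes for nitrogen assimilation, photosynthesis and lipid synthesis could not be described. The reference at hand (160 genes, assembly ASM5162214v2) held organelle genes only, with no nuclear genes, and 0 of 9756 identifiers matched it. Alternatives were another scaling, pseudocounts of 0.1 and 5 FPKM, a filter at 5 FPKM or none, no trended prior, only the libraries of the times compared, a replicate block, culture as a random effect, and each library left out.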

Additional observations from a re-analysis of the deposited data

Results flagged for a closer look

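For every named gene except DGAT1A the difference between the media was not the same at 4 h and a neighbouring time by the limma test of the difference itself, on the log2(FPKM + 1) scale. The genes were partly chosen by these same tests, so the values describe them.

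From 3 to 4 h the difference between the media changed by 1.90 in scaffold00271.g7989, by 1.74 in scaffold00271.g7988, by 1.50 in scaffold00009.g888 and by 0.73 in scaffold00185.g5781. It changed by -1.06 in scaffold00247.g7013 and by -1.04 in scaffold00210.g6057.

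From 4 to 6 h it changed by 1.99 in scaffold00271.g7989, by 1.76 in scaffold00009.g880, by 1.74 in scaffold00271.g7988, by 1.42 in scaffold00009.g888 and by 1.41 in scaffold00009.g887. Smaller positive changes were 0.56 in scaffold00210.g6057, 0.52 in scaffold00185.g5792, 0.50 in scaffold00145.g4962 and 0.38 in scaffold00354.g10029. Negative changes were -1.94 in scaffold00127.g4254, -1.88 in scaffold00069.g2396 and -0.86 in scaffold00185.g5781.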

How the results depend on the processing

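The 4 h differences of the named genes kept their direction where called, and of 406 values of single genes under an alternative 402 kept their side of the threshold. The exceptions were scaffold00009.g880, whose 4 h difference of -0.23 passed with centring (-0.27), with quantile normalization (-0.27) and without N-replete 4 h replicate 2 (-0.31), and scaffold00127.g4254 from 4 to 6 h. A pseudocount of 5 FPKM left 63 genes at least 2-fold higher and 140 lower at 4 h, against 124 and 165. With 0.1 FPKM the counts were 166 and 180. A larger pseudocount shrinks the change of scarce genes. The number of genes whose response differed between 3 and 4 h, 90, was 231 with centring, 213 with quantile normalization, 165 with the libraries of 3 and 4 h alone, 157 with culture as a random effect (estimated correlation 0.12), and 55 to 79 with 1 library left out; the cause was not tested. From 4 to 6 h, positive changes numbered 395 as deposited, 648 with centring and 594 with quantile normalization, and negative ones 464, or 297 without N-deprived 4 h replicate 2. Both directions together numbered 859, or 1051 without N-deprived 4 h replicate 1 and 599 without N-deprived 4 h replicate 2.

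With all 36 libraries, a replicate block called 1942 genes higher and 1126 lower at 4 h and kept 124 and 165 at least 2-fold calls. With the 4 h libraries alone a replicate block called 2434 higher and 1458 lower, against 2121 and 1236 without the block. Deviations from the group mean of same-numbered 4 h libraries correlated at 0.413, 0.299 and 0.0586 across genes. Those of differently numbered libraries correlated at -0.385 to 0.123, so the first and second same-numbered values lay above all of them. The third was under 0.1 and lower than the 0.115 of N-deprived replicate 3 with N-replete replicate 2. Deviations within a group cancel out, so these correlations are not independent and do not settle whether the numbers pair the samples. No pairing was used in the main model, since the labels state none. Low levels limit precision, with a median standard error of 0.13 in the least abundant part of the genes and 0.085 in the most abundant.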

Other observations

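Among 9364 adjacent pairs of tested models in the files' order, 938 were exactly 94 bp apart, the most common gap by far, and the next most common gap, 1 bp, was seen in 237 pairs. The pair scaffold00009.g887 and scaffold00009.g888 has the gap of 94 bp. The median gap was 124 bp, and no models overlapped.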
